A study of Mus musculus with 12 samples.

Results

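The secretory and endocytic trafficking genes on the array, which encode the machinery that carries proteins and membrane between the compartments of a cell, were followed in the small intestine of fed and fasted mice. They were taken by gene symbol, as every non-control probe whose symbol in the scanner files opened with the name of a coat subunit, adaptor subunit, Rab or Arf GTPase, SNARE, sorting nexin, Vps protein or part of the endoplasmic reticulum (ER) import machinery. The rule found 151 of 20280 probes, under 117 symbols, and used no measured value. Of these, 27 genes had more than 1 probe, and 10 probes of 5 symbols carried the name of another kind of gene and were kept apart, which left 141 probes of 112 genes. A current symbol was found for 147 probes, and 25 of these go by another symbol today.

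The mice were male, of the FVB strain, 6 weeks old, with no genetic change named in the labels. They were either fed (0 h) or had their chow taken away for 12, 24 or 72 h, and 3 pools of 2 mice stood for each time point. RNA of the full-thickness intestinal wall of each pool was labelled with the dye Cy3 and hybridised beside Cy5-labelled reference RNA, described as a pool of 6 fed mice, to an Agilent array of 60-base probes. All values below are log2 ratios of Cy3 over Cy5, and all changes are differences between the mean log2 ratios of 2 time points, with their standard error (SE). A probe was called where limma's moderated test over all 12 arrays gave a Benjamini-Hochberg adjusted p under 0.05 over all probes. The wall holds epithelium, muscle, immune and other cells, and in such bulk RNA fewer cells of a type and less RNA per cell cannot be told apart.

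Proteins made for export or for the plasma membrane enter the ER through the Sec61 channel, to which the signal recognition particle (SRP) brings the ribosome. COPII coats form the vesicles that leave the ER for the Golgi, COPI coats those that return, and clathrin with its adaptor complexes forms those that leave the Golgi and the cell surface. Rab and Arf GTPases direct the vesicles, SNAREs fuse them with their target, and sorting nexins and the retromer (Vps35, Vps29 and Vps26) retrieve cargo from endosomes. In the intestine this machinery delivers hydrolases and transporters to the brush border of absorptive cells, packs the mucus of goblet cells and the granules of Paneth cells, and exports lipoproteins.

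Several arrays stood apart. The log2 ratios of fed replicate 3 correlated at 0.23 and 0.20 with those of the other fed arrays over all probes, against 0.78 between those other arrays, and over the trafficking probes at -0.16 and -0.22, against 0.77. The source label of fed replicate 3 names the mice of its own pool as the reference, while its labelling protocol names the pool of 6. It also correlated at -0.38 with 12 h replicate 3 over all probes, whose log2 ratios had the widest spread (SD 0.69, against 0.25 to 0.54 on the others). On 12 h replicate 1 the scanner software marked 5.473% of spots as outliers, 26 of them trafficking probes, which were left out. The 12 h and 24 h arrays were deposited in another file layout, with median Cy5 intensities of 393.0 to 627.0, against 124.0 to 142.0 on the fed and 72 h arrays. Within a layout lie 72 h against fed and 24 h against 12 h. In the other comparisons layout and fasting cannot be told apart.

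At 72 h more of the trafficking probes were called lower than higher. At 72 h against fed, 25 probes fell and 8 rose of 151 (16.6% and 5.30%), where 5.79% of all probes tested were called lower and 4.81% higher (10.6% in either direction). Without the 10 probes matched by name only, 22 of 112 genes had a probe that fell, by 0.59 to 1.31 on the log2 scale, and 7 had a probe that rose. In all of these 31 probes the measured 72 h pools did not overlap with the measured fed pools. The probes had been picked by a test on the same pools, so this adds no support. Some, such as Copg2, had pools that were not measured, and the share without overlap over all probes was not counted. Median centring of the arrays in place of quantile normalization gave 31 lower and 4 higher (14.0% of all probes called), loess within each array 25 and 14 (16.7%), and the ratio of the scanner software 20 and 11 (15.8%). The median change of the 151 probes was -0.07, with 90 below 0, and that of all probes 0.01. The count depended on single arrays. It was 33 with all arrays and 16 without fed replicate 3 (5 higher, 11 lower, against 5.51% of all probes called). It was 16 without 72 h replicate 1 (7 higher, 9 lower, against 4.2%). Without 72 h replicate 2 it was 21 and without 72 h replicate 3 it was 18 (against 6.84% and 7.24%). Of the 33 calls, 13 stood without each of the 12 arrays in turn: Cope, Srp14, Rab11a, Rab6, Ap1m1, Ap2a2, Vamp2, Snx1, Snx3, Snx5, Vps35, Vps29 and Sec14l2.

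**Figure D1:**
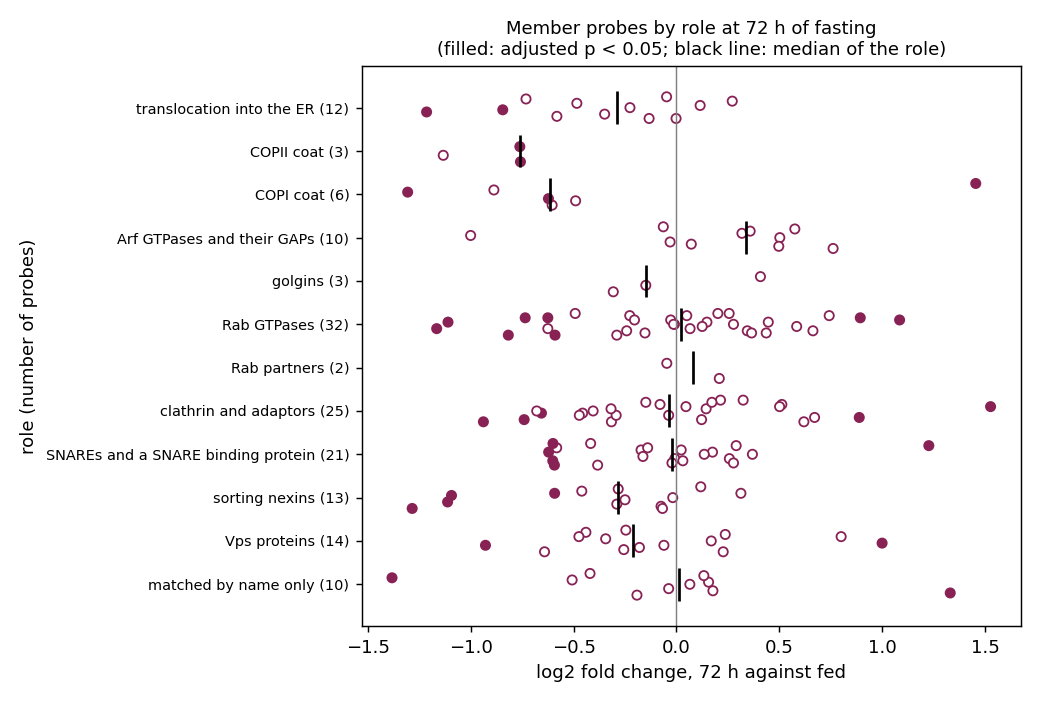
Change of each trafficking probe at 72 h against fed (horizontal axis, difference of mean log2 Cy3/Cy5), by role (vertical axis), with called probes marked apart from the others and a bar at the median of each role. The COPII, COPI, sorting nexin and ER translocation probes have medians of -0.76, -0.61, -0.28 and -0.29, and the Rab GTPases, adaptors and SNAREs have medians of 0.02, -0.04 and -0.02.

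At 12 h against fed, 17 probes fell and 11 rose, where 6.02% of all probes were called lower and 4.87% higher (10.9% in all). When only the fed and 12 h arrays were fitted, 0 trafficking probes and 0 of all probes were called. With Cy3 alone the balance at 12 h was the opposite, 5 lower and 11 higher (15.0% of all probes called), with median centring it was 32 lower and 4 higher (14.9%), and with the scanner software's ratio 11 and 4 (7.86%). At 24 h against fed, 11 fell and 2 rose, where 6.26% of all probes were called lower and 3.76% higher (10.0% in all). With Cy3 alone these were 18 and 8, where 24.6% of all probes were called, a larger share than among the trafficking probes. The median changes were -0.01 and 0.02, beside -0.02 and 0.02 for all probes. With median centring they were -0.09 and -0.17 (all probes -0.01 and -0.02), and with Cy3 alone -0.04 and -0.20 (all probes 0.02 and -0.06). Over the 3 comparisons with the fed pools, which share those pools, the F-test called 51 of 151 probes (33.8%), against 24.9% of all probes. At 12 h the count was 28 with all arrays. It was 13 without fed replicate 1 and 10 without fed replicate 3 (4.03% and 3.16% of all probes called). It was 17 without 12 h replicate 3 and 47 without 12 h replicate 1 (7.3% and 22.6% of all probes). At 24 h the count was 13 with all arrays. It was between 2 and 7 without any 1 of the fed, 24 h or 72 h arrays (2.88% to 7.91% of all probes). Without 12 h replicate 3 it was 25 (19.7% of all probes).

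The channels behind the ratios moved differently at the early and late times. The Cy5 channel holds the reference and not the fasted pools, yet its normalized level differed between the early fasted arrays and the fed arrays. Between 12 h and fed it was called different for 39 of the 151 probes (25.8%, against 21.9% of all probes). Between 24 h and fed it was called different for 23 (15.2%, against 20.4% of all probes). At 72 h it was called for 0 by limma, with 6 at an unadjusted p under 0.05. Of the 28 probes called at 12 h, Cy5 had moved more than Cy3 in 18, and only Rab3d and Ap1s2 were also called the same way in Cy3 alone. At 24 h, 7 of 13 were called in Cy3 alone. At 72 h, 18 of 33 were, all 33 had the same sign in Cy3, and Cy5 had moved more than Cy3 in 0. So, of the trafficking probes called at 12 h and named below, none but Rab3d and Ap1s2 was called in Cy3 alone. Of those called at 24 h, Rab17, Rab33b, Ap3s1, Copb1, Stx3 and Ap1m1 were not.

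**Figure D2:**
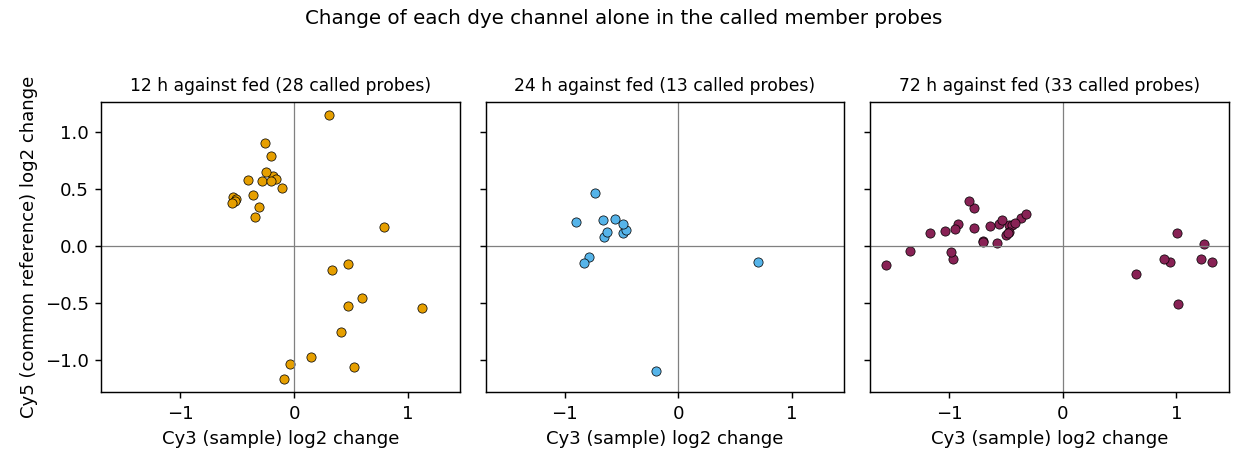
Change of the normalized Cy5 reference channel (vertical axis, log2) against that of the Cy3 sample channel (horizontal axis, log2) for the trafficking probes called at 12, 24 and 72 h against fed, 1 panel for each time. At 72 h the points lie spread along the Cy3 axis, whereas at 12 h Cy5 had moved more than Cy3 in 18 of 28 probes.

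Import into the ER was measured by 12 probes of 10 genes, of which 2 fell at 72 h and 0 rose by limma (3 lower and 0 higher at an unadjusted p under 0.05), with a median of -0.29. Over all probes, 5.79% were called lower and 4.81% higher at 72 h. Srp14 encodes a subunit of the part of SRP that slows translation while the ribosome docks. Its log2 ratios were -0.31, -0.35 and 0.18 in the fed pools, -0.79, -0.93 and -1.31 at 12 h, -1.26, -1.26 and -1.28 at 24 h, then -1.55, -1.27 and -1.30 at 72 h. Every fasted pool lay below every fed pool. Srp14 fell by 0.85 ± 0.18 at 12 h, by 1.11 ± 0.18 at 24 h and by 1.21 ± 0.18 at 72 h (SE; adjusted p = 0.0133, 0.00372 and 0.00117), the last a 2.32-fold difference. At 12 h its Cy3 level alone was 0.30 higher, not lower, and the difference lay in Cy5, whereas at 24 and 72 h it was lower in Cy3 alone as well. Ssr2, the beta subunit of the complex that assists the channel, had log2 ratios of 0.49, 0.49 and 0.28 in the fed pools and -0.65, -0.19 and -0.43 at 72 h. It fell at 72 h by 0.84 ± 0.18 (adjusted p = 0.01), a call lost without 72 h replicate 1. Sec61a2 (listed as Sec61a2-pending), an isoform of the pore, fell at 12 h by 0.81 ± 0.20 (adjusted p = 0.0213) and stood at its fed level at 72 h (0.00, adjusted p = 0.996). It was measured on only 2 fed arrays. The main pore gene Sec61a did not pass the test, with -0.05 and -0.13 at 72 h on its 2 probes. Nor did Sec61g, Sec63, Srp9, Srp54, Ssr1 and Ssr4, with changes between -0.73 and 0.27.

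The COPII coat had 2 genes, Sec23a and Sec23b, whose products stimulate GTP hydrolysis by the GTPase that assembles the coat. Both Sec23a probes, which the scanner files describe as similar to a rat genomic clone, fell at 72 h, by 0.76 ± 0.19 each (adjusted p = 0.0216 and 0.0222). Probe A_65_P15644 read -0.28, -0.23 and 0.46 in the fed pools and -0.81, -0.73 and -0.78 at 72 h. The 72 h pools agreed closely, while fed replicate 3 lay far above the other fed pools. Both calls were lost without that array, without 72 h replicate 1 or 3, and with Cy3 alone, where the changes were -0.54 and -0.56. Sec23b was measured in 1 fed pool and did not pass the test (-1.13 ± 0.71, adjusted p = 0.359).

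The COPI coat, or coatomer, had 6 subunits on the array with 1 probe each, and they did not move as 1 group. At 72 h, Cope and Copb2 fell, Copg2 rose, and Copa, Copb1 and Copz1 were not called. Cope, the epsilon subunit, read -0.03, -0.21 and 0.64 in the fed pools, -0.32, -0.55 and -0.43 at 12 h, -0.65, -0.25 and -0.35 at 24 h, then -1.15, -1.04 and -1.33 at 72 h. All 72 h pools lay below all other pools. Cope fell at 72 h by 1.31 ± 0.21 (adjusted p = 0.00151), a 2.47-fold difference and the largest fall among the genes of the machinery, and was as low in Cy3 alone (-1.35). Its fall was also called against 12 h (-0.74) and against 24 h (-0.76). Copb2, the beta-prime subunit, read -0.28, -0.40 and 0.13 in the fed pools and -0.81, -0.79 and -0.82 at 72 h, a fall of 0.62 ± 0.17 (adjusted p = 0.0294). That call was lost without fed replicate 1 or 3 or any 72 h array, and with Cy3 alone (-0.37).

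Copg2, the second form of the gamma subunit, was measured on only 1 fed array (-0.69) and on 2 arrays at 72 h (0.53 and 0.99), and rose by 1.45 ± 0.29 (adjusted p = 0.0112). The call was lost without 72 h replicate 3. Copb1, the beta subunit, was also measured on 1 fed array (0.09), and its changes at 12, 24 and 72 h were -0.96, -0.89 and -0.89, with adjusted p of 0.0401, 0.0437 and 0.0529. The alpha subunit Copa and the zeta subunit Copz1 were called higher at 12 h, by 1.13 ± 0.32 and 1.60 ± 0.48 (adjusted p = 0.0394 and 0.0481), on 2 arrays each. Copg2 was called higher at 12 h too (1.08, adjusted p = 0.0433), on 2 arrays and with -0.09 in Cy3. Of the 12 h calls in the coat, those of Copa, Copz1 and Copg2 stood without only 2 of the 12 arrays left out in turn and that of Copb1 without only 1. The 12 h pools of Copz1 read 0.32 and 2.54, so they differed from each other by more than the change. The Cy3 level of Copa was 0.15 higher at 12 h and its Cy5 level 0.98 lower.

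**Figure D3:**
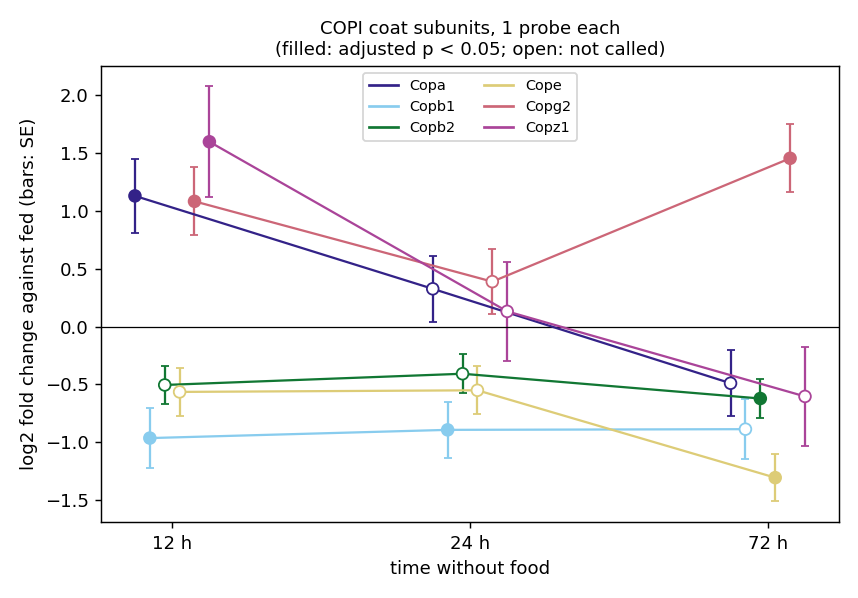
Change of the 6 COPI subunits against fed (vertical axis, log2, with bars of 1 SE) at 12, 24 and 72 h of fasting (horizontal axis). Cope goes from -0.56 at 12 h to -1.31 at 72 h, Copg2 ends at 1.45, and Copa and Copz1 go from above 1 at 12 h to -0.49 and -0.60 at 72 h.

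The promoters of the COPI and COPII genes are shown because several of these subunits were called lower and because factors of the ER stress and cyclic AMP responses are known to bind short motifs near the start of such genes. RefSeq promoters of the GRCm38.p6 build, 300 bases from 250 before to 50 after the start on the strand of the gene, were found for 92 of the 112 genes (107 promoters). The 8 letters TGACGTGG (CCACGTCA on the other strand), bound by factors of the ER stress response, were found in 6 of these 107 promoters (5.61%) and in 0.68% of all 32851 promoters. The palindrome TGACGTCA, the cyclic AMP response element, was found in 4 (3.74%) against 1.79% of all. The shorter CCACG, searched on both strands and held by every TGACGTGG in reverse, was found in 52 (48.6%) against 32.8%. Among the 19 promoters of genes called lower at 72 h, TGACGTGG was found in 2, TGACGTCA in 1 and CCACG in 5 (26.3%). Of the 4 promoters of genes called higher, 0 held either 8-letter motif and 4 held CCACG. The genes with an 8-letter match were Arf1 (in both its promoters), Stx5a, Rab5a, Ap2b1, Cltb, Sec23a and the COPI subunits Copb1, Copb2 and Cope. The 4 coat promoters among them, at chr7:114254631-114254930 on the minus strand for Copb1, chr9:98563481-98563780 on the plus strand for Copb2, chr8:70302517-70302816 on the plus strand for Cope and chr12:59011968-59012267 on the minus strand for Sec23a, read as follows, with the matches to these 3 motifs in capitals:
Copb1: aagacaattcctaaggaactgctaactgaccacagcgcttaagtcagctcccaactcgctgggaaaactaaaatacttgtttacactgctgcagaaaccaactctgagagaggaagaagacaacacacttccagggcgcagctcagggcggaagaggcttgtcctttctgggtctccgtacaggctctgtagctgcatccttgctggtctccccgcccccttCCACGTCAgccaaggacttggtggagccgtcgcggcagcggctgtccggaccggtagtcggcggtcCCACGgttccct
Copb2: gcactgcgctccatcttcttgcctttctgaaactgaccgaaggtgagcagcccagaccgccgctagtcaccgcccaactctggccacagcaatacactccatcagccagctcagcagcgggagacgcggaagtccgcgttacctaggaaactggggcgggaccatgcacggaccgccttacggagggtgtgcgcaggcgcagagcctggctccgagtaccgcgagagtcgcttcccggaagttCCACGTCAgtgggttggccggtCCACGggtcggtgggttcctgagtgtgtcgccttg
Cope: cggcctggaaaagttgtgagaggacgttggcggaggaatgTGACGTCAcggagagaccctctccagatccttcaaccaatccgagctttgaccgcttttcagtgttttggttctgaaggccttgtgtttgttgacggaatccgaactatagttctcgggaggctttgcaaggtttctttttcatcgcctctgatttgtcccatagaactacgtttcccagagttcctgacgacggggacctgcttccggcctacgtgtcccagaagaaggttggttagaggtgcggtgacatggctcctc
Sec23a: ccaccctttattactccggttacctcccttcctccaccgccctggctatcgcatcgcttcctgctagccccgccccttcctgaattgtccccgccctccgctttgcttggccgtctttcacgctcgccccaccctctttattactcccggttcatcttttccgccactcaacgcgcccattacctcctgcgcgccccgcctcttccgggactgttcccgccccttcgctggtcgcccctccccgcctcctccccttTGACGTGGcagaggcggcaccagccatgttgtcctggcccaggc
The match opens 28 bases before the start in Copb1, 7 before it in Copb2, 210 before it in Cope and 6 after it in Sec23a. Of these genes, Cope, Copb2 and Sec23a fell at 72 h and Copb1 was called lower at 12 and 24 h. A match of letters shows no binding.

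The 26 Rab GTPases (32 probes) had 6 probes that fell and 2 that rose at 72 h, around a median of 0.02. Over all probes, 5.79% were called lower and 4.81% higher. Rab11a, which serves the recycling endosome beneath the apical membrane of epithelial cells, read -0.15, -0.37 and -0.10 in the fed pools, -0.61, -0.55 and 0.45 at 12 h, -0.89, -0.72 and -0.82 at 24 h, then -1.54, -1.25 and -1.33 at 72 h. Apart from 12 h replicate 3 every fasted pool lay below every fed pool, and the 72 h pools were the lowest. Rab11a fell at 72 h by 1.17 ± 0.23 (adjusted p = 0.00555), a 2.24-fold difference, and fell in Cy3 alone by 0.97 at 24 h and by 1.03 at 72 h. Its close relative Rab11b did not pass the test (0.45 at 72 h).

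Rab6, which serves transport within the Golgi and back to the ER, had 2 probes. A_65_P04764 read -0.35, -0.38 and -0.01 in the fed pools, -1.01, -1.32 and -1.38 at 12 h, -0.81, -0.76 and -0.96 at 24 h, then -1.45, -1.31 and -1.32 at 72 h. It fell by 0.99, 0.59 and 1.11 ± 0.16 at the 3 times (adjusted p = 0.00419, 0.033 and 0.000883), the last a 2.16-fold difference. The Cy3 changes were -0.41, -0.46 and -0.78, the first not called. The 24 h call was lost without any 1 of the fed or 24 h arrays, while that at 72 h stood under every alternative run. The other probe, A_65_P19459, gave 0.44 at 72 h and was not called, so the 2 probes of Rab6 disagreed.

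The other Rab genes that fell at 72 h did so by less. Rab17, an epithelial Rab of apical recycling, fell by 0.75, 0.73 and 0.73 at 12, 24 and 72 h, and Rab33b, a Golgi Rab, by 0.65, 0.61 and 0.59. Rab21, which serves early endosomes, fell at 72 h by 0.82 ± 0.22 (adjusted p = 0.0306). Rab1, which serves traffic from the ER to the Golgi, fell at 72 h on A_65_P14984 (-0.62 ± 0.17, adjusted p = 0.0296), while its other probe gave -0.24. None of Rab1, Rab17, Rab21 and Rab33b was called at 72 h in Cy3 alone, where they stood between -0.70 and -0.44.

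Among the Rab genes that rose, Rab3d, a Rab of secretory granules, stood highest at 12 h. It read 0.11, 0.07 and 0.20 in the fed pools, 1.09, 2.09 and 2.21 at 12 h, 0.06 and 0.30 on the measured 24 h arrays, and 1.07, 0.89 and 0.41 at 72 h. The 12 h pools lay above every fed and 24 h pool. Rab3d rose at 12 h by 1.67 ± 0.26 (adjusted p = 0.00415), a 3.19-fold difference, of which Cy3 alone gave 1.12. It then fell between 12 and 24 h by 1.62 and was not called at 72 h (0.66, adjusted p = 0.131). Rab20, an endosomal Rab, rose by 1.06 ± 0.21 at 12 h and 0.89 ± 0.21 at 72 h (adjusted p = 0.00928 and 0.0141), with 0.01 at 24 h. The 72 h call was lost without fed replicate 3, without 72 h replicate 1 or 2, and in Cy3 alone (0.65). Rab4a, which serves fast recycling from early endosomes, rose by 1.17 ± 0.25 at 12 h and 1.08 ± 0.25 at 72 h (adjusted p = 0.0129 and 0.0127). Its 72 h call stood in Cy3 alone (0.94) and was lost without fed replicate 3 or 72 h replicate 3. The early endosome gene Rab5a fell on A_65_P18707 at 12 and 24 h, by 0.78 and 0.69, and stood at -0.01 at 72 h, while its other probe gave 0.12 to 0.17 throughout. Rab27a, which serves secretory and lysosome-related granules, fell at 12 h only, by 0.85 ± 0.20 (adjusted p = 0.0197), with -0.28 in Cy3 and 0.57 in Cy5.

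The 7 Arf genes and Arf GAPs (10 probes), of which Arf1 recruits the COPI coat, had 0 calls against fed at any time by limma, with 1, 1 and 4 at an unadjusted p under 0.05 at 12, 24 and 72 h. At 72 h their changes ran from -1.0 for Arf4 (adjusted p = 0.0615) to 0.76 for Arfgap3, with a median of 0.34. In Cy3 alone Arf4 was called lower at all 3 times (-0.60, -0.85 and -0.84, adjusted p = 0.0187, 0.00189 and 0.0038). The golgins Golga3 and Golga4 (3 probes) and the Rab partners Rab5ep and Rab6ip1 were not called either.

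Clathrin and its adaptors were measured by 25 probes of 22 genes, of which 2 rose and 3 fell at 72 h. Over all probes, 4.81% were called higher and 5.79% lower. Ap1m1, the cargo-binding medium subunit of the AP-1 complex of the Golgi and endosomes, read 0.52, 0.68 and -0.17 in the fed pools, 0.48, 1.56 and 1.45 at 12 h, 1.44, 1.28 and 1.04 at 24 h, then 1.92, 1.66 and 2.03 at 72 h. All 24 h and 72 h pools lay above all fed pools. Ap1m1 rose at 72 h by 1.53 ± 0.27 (adjusted p = 0.00297), a 2.88-fold difference, with 1.01 in Cy3 and -0.51 in Cy5, and was not called with median centring of the arrays. At 24 h it was called higher (0.91, adjusted p = 0.0496) while its Cy3 level was 0.20 lower and its Cy5 level 1.10 lower. Ap1m2, the medium subunit particular to epithelia, did not pass the test and gave -0.04 at 72 h.

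The AP-2 complex of the plasma membrane had a rise and a fall. Ap2a2, an alpha subunit, read 0.12, 0.14 and 0.04 in the fed pools on A_65_P06617, -0.43 to -0.06 over the 6 pools of 12 and 24 h, and 1.02, 0.87 and 1.07 at 72 h. It rose at 72 h by 0.89 ± 0.15 (adjusted p = 0.00192), and by 1.28 and 1.20 against 12 and 24 h, and its other probe gave 0.50 without a call. Ap2m1, the medium subunit that binds tyrosine-based signals, fell at 72 h on A_65_P16907 by 0.74 ± 0.16 (adjusted p = 0.00986), a call lost without 72 h replicate 1. Its other probe, A_65_P19250, stood 0.62 higher and was not called, so the 2 probes differed in sign. Ap3s1 and Ap3s2, the small subunits of the AP-3 complex that serves lysosomes, fell at 72 h by 0.94 ± 0.23 and 0.66 ± 0.19 (adjusted p = 0.0186 and 0.0413). Neither fall was called without fed replicate 3 or without any 1 of the 72 h arrays. Ap3s1 also fell at 12 and 24 h, by 0.99 and 0.79. At 12 h alone, Ap1s2 rose by 0.63 (Cy3 0.79), Ap3b1 rose by 0.54, Ap4m1 was called higher by 1.00 with -0.04 in Cy3 and -1.04 in Cy5, and the light chain Cltb fell by 0.60. The clathrin heavy chain Cltc was not called, with 1.17, 0.58 and 0.51 at 12, 24 and 72 h.

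The SNAREs and their partner (21 probes of 17 genes) had 1 probe that rose and 4 that fell at 72 h. Over all probes, 4.81% were called higher and 5.79% lower. Vamp2, a vesicle SNARE of regulated secretion and recycling, read 0.10, -0.02 and -0.74 in the fed pools, -0.06, 0.04 and 0.35 at 12 h, -0.14, -0.01 and -0.02 at 24 h, then 0.92, 1.14 and 0.96 at 72 h. Only the 72 h pools were high, and all lay above every other pool. Vamp2 rose at 72 h by 1.23 ± 0.20 (adjusted p = 0.00199), a 2.34-fold difference carried by Cy3 (1.24). The scanner files describe this probe by the rat Vamp2 transcript. It was also called higher at 72 h than at 12 h (0.89) and 24 h (1.06). The related Vamp1, Vamp3 and Vamp8 gave -0.01, 0.37 and -0.16, and 0.03 at 72 h and were not called.

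The syntaxins that moved at 72 h all fell, and modestly. Stx7, of late endosomes, fell on both probes, by 0.59 and 0.60 ± 0.16. Stx12, of recycling endosomes, fell by 0.60 ± 0.17 and Stx18, of the ER, by 0.62 ± 0.17 (adjusted p from 0.0278 to 0.043 over these probes), and none was called in Cy3 alone. Stx7 on A_65_P14660 and Stx18 had fallen by more at 12 h (0.92 and 0.90). Sec22l2, today named Sec22a, read 0.37, 0.27 and -0.05 in the fed pools, -0.56, -0.95 and -1.38 at 12 h, -1.03, -1.0 and -0.95 at 24 h, then -0.01, -0.52 and -0.14 at 72 h. It fell by 1.16 and 1.19 ± 0.21 at 12 and 24 h (adjusted p = 0.00617 and 0.00462) and lay closer to fed again at 72 h (-0.42, adjusted p = 0.23), with 72 h called higher than both earlier times. Its Cy3 level fell in its own right at 24 h (-0.73) but not at 12 h (-0.26). Stx1a was called higher at 12 and 24 h, by 1.00 and 0.84, and gave -0.02 at 72 h. Stx3, the syntaxin of the apical membrane, fell at 24 h on A_65_P16598 by 0.69 ± 0.20 (adjusted p = 0.0494) and was not called on its other probe.

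Sorting nexins bind endosomal membrane and, as the Snx1, Snx2 and Snx5 coat, bend it into the tubules that carry retromer cargo. Of 13 probes of 7 genes, 4 fell and 0 rose at 72 h by limma (5 lower and 0 higher at an unadjusted p under 0.05). Over all probes, 5.79% were called lower and 4.81% higher. Snx1 read -0.05, 0.07 and 0.25 in the fed pools, -0.12 and -0.53 on the measured 12 h arrays, -0.40, -0.50 and -0.62 at 24 h, then -1.79, -0.85 and -0.93 at 72 h. The 72 h pools were the lowest, with replicate 1 lower than the others. Snx1 fell at 72 h by 1.28 ± 0.23 (adjusted p = 0.00335), a 2.43-fold difference, and by 1.17 in Cy3 alone.

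Snx3 read -0.31, -0.43 and 0.20 in the fed pools and -1.39, -1.19 and -1.30 at 72 h, and fell by 1.11 ± 0.19 (adjusted p = 0.00219). Snx5 on A_65_P08683 read 0.12, -0.18 and 0.23 in the fed pools and -1.15, -0.95 and -1.02 at 72 h, and fell by 1.09 ± 0.18 (adjusted p = 0.00185). The 72 h pools of both genes lay below every other pool, and the falls from 12 h and from 24 h were called as well. The other 2 Snx5 probes gave 0.12 and 0.31 at 72 h and were not called. Snx2 fell on A_65_P01593 by 0.92, 0.68 and 0.59 at the 3 times, while A_65_P13010 was called higher at 12 h (0.63) and the third probe was not called.

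Of the core subunits of the retromer, Vps35 was called lower and Vps29 higher at 72 h. Vps35, its scaffold, read -0.09, -0.28 and 0.05 in the fed pools, -0.43, -0.75 and -0.99 at 12 h, -0.67, -0.64 and -0.84 at 24 h, then -1.35, -0.89 and -0.86 at 72 h. All fasted pools lay below all fed pools. Vps35 fell by 0.62 ± 0.19 at 12 h and 0.93 ± 0.19 at 72 h (adjusted p = 0.0469 and 0.00577), with -0.61 at 24 h (adjusted p = 0.0511), and in Cy3 alone only the fall at 72 h was called. Vps29 read -0.01, 0.19 and -0.50 in the fed pools, 0.29 and 0.72 on the measured 12 h arrays, 0.29, 0.20 and -0.02 at 24 h, then 1.03, 0.62 and 1.02 at 72 h. Its 72 h pools lay above every fed and 24 h pool, and it rose by 1.00 ± 0.21 (adjusted p = 0.00777), a 2.00-fold difference. The change was 0.89 in Cy3 alone but not called there, nor with median centring. Both probes of Vps26, the remaining core subunit, were not called (-0.34 and -0.44). The other Vps genes, which serve late endosomes, ESCRT and the Golgi, were not called against fed.

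**Figure D4:**
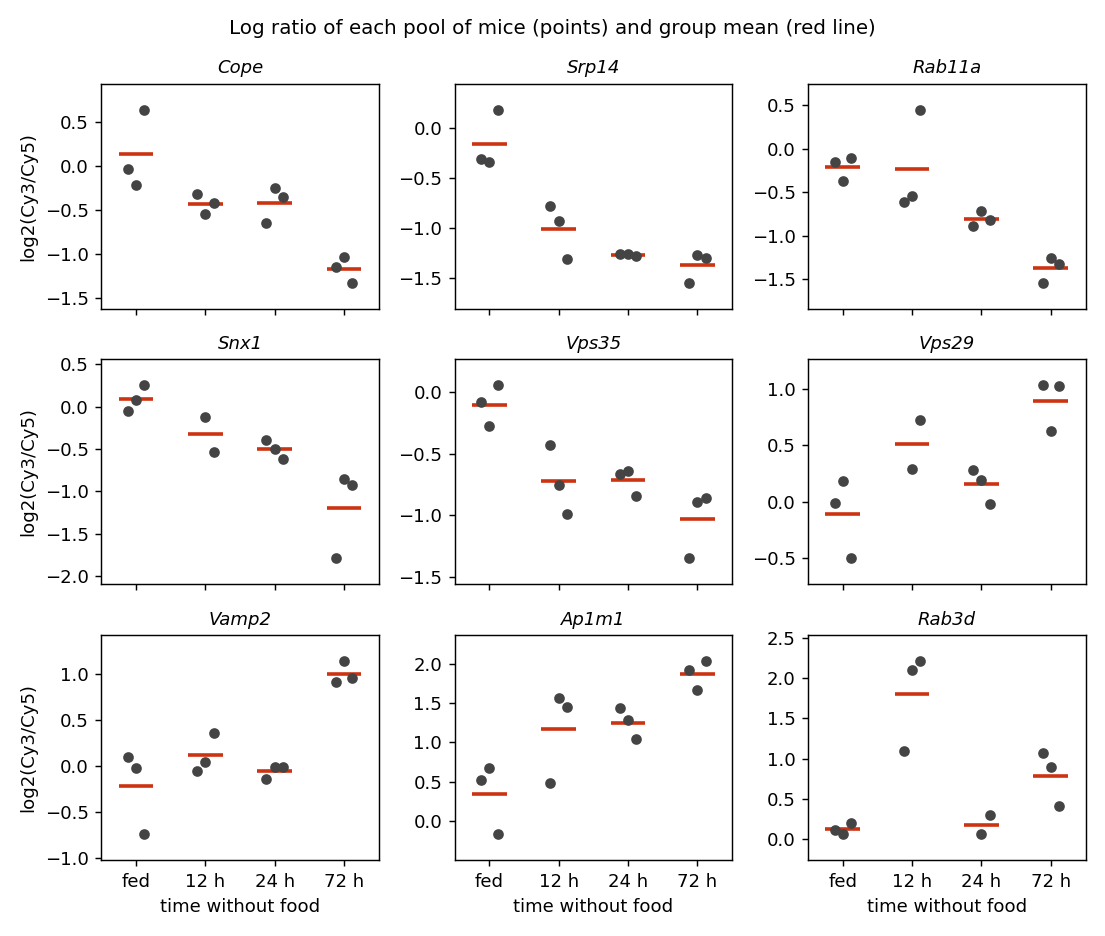
Log2 Cy3/Cy5 ratio of each pool (vertical axis) at 0, 12, 24 and 72 h of fasting (horizontal axis) for 9 trafficking genes, with points for pools and a red line for the mean. Cope, Srp14, Rab11a, Snx1 and Vps35 are lowest at 72 h, Vps29, Vamp2 and Ap1m1 are highest there, and Rab3d is highest at 12 h.

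**Figure D5:**
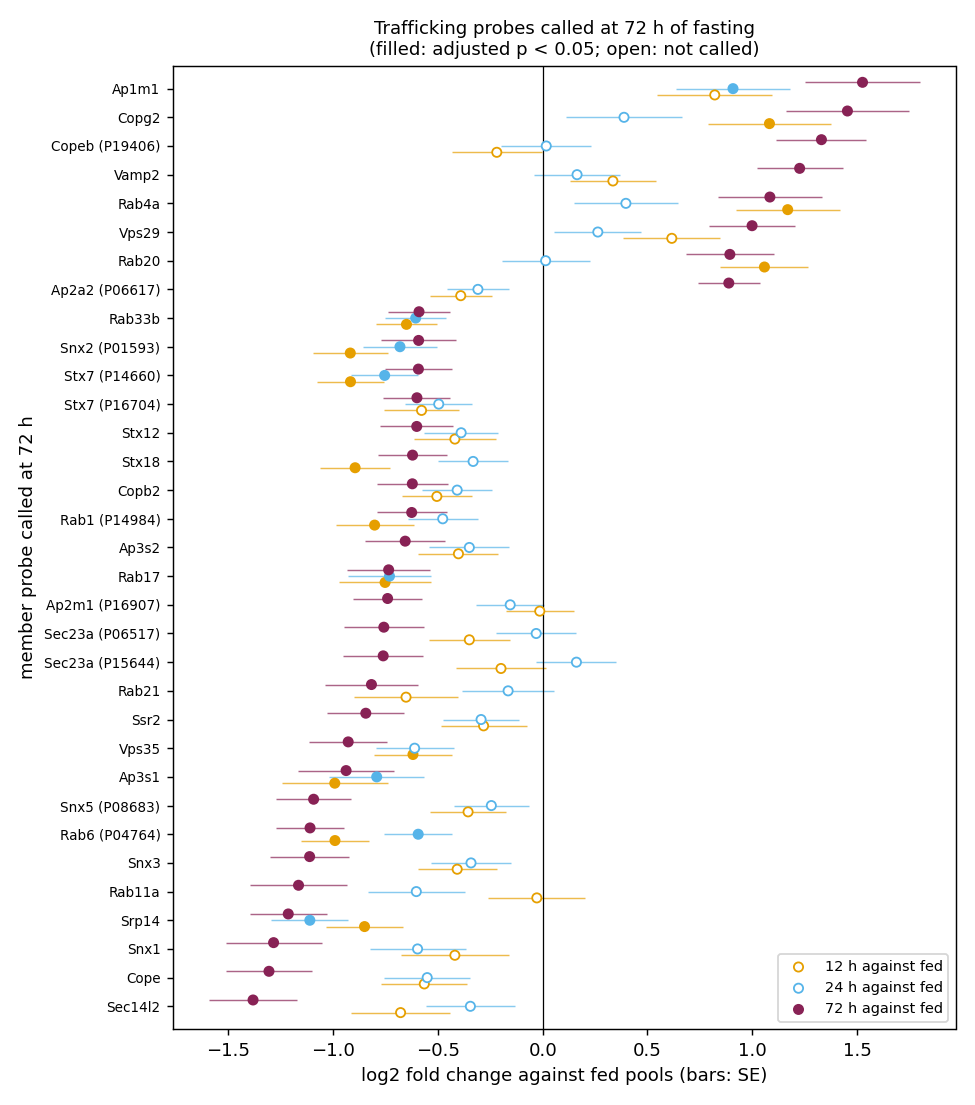
Change against fed (horizontal axis, log2, with bars of 1 SE) at 12, 24 and 72 h for the 33 trafficking probes called at 72 h, 1 line a probe, with filled points where the change was called. The falls run from -1.38 for Sec14l2 to -0.59 and the rises from 0.89 to 1.53.

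Of the 8 genes with several probes of which at least 1 was called at 72 h, only Sec23a and Stx7 were called alike on all their probes. For the others, such as Rab6, Rab1, Ap2a2, Ap2m1, Snx2 and Snx5, the value is that of the probe and not of every transcript of the gene. Among the probes matched by name only, Sec14l2, a lipid-binding protein outside the vesicle machinery, fell at 72 h by 1.38 ± 0.21 (adjusted p = 0.00149). Copeb is the older symbol of the transcription factor Klf6, and its probes were called lower at 12 h (-0.93) on A_65_P13331 and higher at 72 h (1.33, with 1 fed pool measured) on A_65_P19406.

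Between the fasted times, fewer probes differed between 12 and 24 h than between those and 72 h, among trafficking probes as among all probes. Of the trafficking probes, 1.99% were called at 24 h against 12 h. At 72 h, 15.9% were called against 12 h and 14.6% against 24 h. Only 24 h against 12 h lies within a file layout. At 24 h against 12 h, 3 probes fell (Rab3d, Rab20 and Golga4 on A_65_P02392, by 1.62, 1.04 and 1.15) and 0 rose by limma (19 lower and 14 higher at an unadjusted p under 0.05), where 1.71% of all probes were called lower and 1.23% higher (2.94% in all). At 72 h against 12 h, 15 fell and 9 rose, where 4.91% were called lower and 5.84% higher (10.8% in all). At 72 h against 24 h, 10 fell and 12 rose, where 4.72% were called lower and 5.88% higher (10.6% in all). Cope, Snx3, Snx5, Ap2m1, Stx1a and 1 probe of Snx2 were lower, and Vamp2, Ap2a2, Sec22l2, Sec61a2 and Rab5a higher, at 72 h than at either earlier time. Apart from the name-only match Copeb (1.55), the largest called differences against 12 h were those of Copz1 (-2.20), Copa (-1.62) and Vps54 on A_65_P02410 (1.33). Without single arrays these counts ranged from 0 to 10, from 3 to 36 and from 4 to 41. The shares of all probes called then ranged from 0.819% to 7.36%, from 3.05% to 16.3% and from 2.72% to 19.5%.

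A wider list of 156 partners of the machinery, of which 80 genes were measured, had 12 that fell and 5 that rose at 72 h, where 10.6% of all probes were called, with a median of -0.23. At 12 h, 7 fell and 4 rose (10.9% of all probes called), and at 24 h, 5 fell and 2 rose (10.0%). Without single arrays the count at 72 h ran from 7 to 26. Of 7 genes of ER processing, Rpn1 and Dad1 of the oligosaccharyl transferase fell by 0.99 and 0.66, and the cargo receptor Surf4 by 0.65. In Cy3 alone Rpn1, measured on 2 arrays at 72 h, was called (-0.85), and Dad1 (-0.40) and Surf4 (-0.44) were not. Of 28 genes listed under endocytosis and sorting, 6 fell at 72 h, while the vesicle-cutting GTPase Dnm2 rose by 1.43. Among the falls were Synj2bp (-1.08), Numb (-0.96), the adaptor Gga3 (-0.84) and the mannose 6-phosphate receptor Igf2r (-0.86). Synj2bp was also called in Cy3 alone, and Numb was not (-0.91). The probe listed as Picalm carries the gene number of Wdr43 today and was not called at 72 h. The related receptor M6pr fell at 24 h, by 1.14, with -0.71 at 72 h (adjusted p = 0.0512).

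Of 12 genes listed as regulators of Rab and Arf proteins, 2 rose at 72 h and 1 fell. Over all probes, 4.81% were called higher and 5.79% lower. The list also held the Arf-like genes Arfrp1, Arl2, Arl3, Arl4 and Arl6, none of which was called at 72 h. Pscd2 (cytohesin 2, an exchange factor for Arf) read 0.02, 0.19 and -0.30 in the fed pools and 2.30, 1.41 and 2.40 at 72 h, a rise of 2.07 ± 0.27 (adjusted p = 0.000443). Rabggta, a subunit of the enzyme that attaches lipid to Rab proteins, read -0.04, 0.06 and -0.22 in the fed pools and 2.12, 1.27 and 2.02 at 72 h, a rise of 1.87 ± 0.32 (adjusted p = 0.00226). Both rises were larger than those of any member of the machinery, and the Rab escort protein gene Chm fell at all 3 times, by 0.91, 0.69 and 0.72. In Cy3 alone the fall of Chm was called at 24 h only. Of 19 fusion genes, Scamp2 rose (1.31) and Vti1b fell (-0.64), and of 9 tethering genes Cog8 fell (-0.71). Scamp2 and Vti1b were also called in Cy3 alone, and Cog8 was not (-0.56). Of 5 regulators of secretory capacity, the ER-bound transcription factor gene Creb3 rose at 72 h by 2.12 ± 0.46 (adjusted p = 0.00977). Xbp1 was called higher at 12 h (3.84), but on 1 measured 12 h array and with 0.56 in Cy3.

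Markers of other cells moved as well. The enterocyte markers measured (4 of 13 listed) were well above background on all arrays, with 0 called at 72 h, and their summed Cy3 intensity was 80080 to 132300 in the fed pools and 103200 to 107700 at 72 h. The goblet cell marker Agr2, itself a protein of the secretory path, was the only 1 measured of 7 listed. It fell at 72 h by 1.45, from 2107 to 2808 in the fed pools to 779.1 to 1127. Of B and plasma cells, which are rich in ER, 3 of 11 listed markers were measured, and all 3 fell at 72 h (Igj -3.22, Igh-6 -0.99 and Ms4a1 -0.79). Their summed intensity was 2664 to 3965 in the fed pools and 569.7 to 672.1 at 72 h. Of 8 smooth muscle markers, 5 were called higher at 12 h, 3 at 24 h and 2 at 72 h. Of the 12 h calls, those of Actg2, Smtn and Mylk were also made in Cy3 alone, and those of Acta2 and Des were not. The enterocyte marker Anpep (3.43) and the Paneth marker Mmp7 (2.02) were called higher at 12 h as well, but not in Cy3 alone. None of the Paneth, T cell and enteroendocrine markers measured (2 of 10, 2 of 9 and 2 of 9 listed) was called at 72 h, nor the pancreatic Cpa1. The part of these shifts in the changes of the trafficking genes was not tested.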

How the data were processed

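RNA of 12 pools of 2 mice was measured on 12 2-colour arrays. The authors deposited the output of Feature Extraction 6.1.1, with a median foreground and background intensity per spot and channel, not normalized, flags for outlier and dim spots, and a log10 ratio (Cy5 over Cy3) that Feature Extraction had already background-subtracted and normalized for dye. The deposited value table holds the same log10 ratio with the sign turned. Dyes were not swapped, and the direction was taken from the labels. The median intensities were corrected with normexp (offset 50) in limma 3.58.1 (R 4.3.3), all 24 channels were quantile normalized, outlier spots, 1075 control spots and 91 retired spots were left out, and the spots of a probe were averaged, which gave 20280 probes. No filter on low values was applied, and 148 of the 151 trafficking probes were well above background on all 3 arrays of 1 or more of the time points. A mean per time point was fitted over all 12 arrays with eBayes, and p-values were adjusted by Benjamini-Hochberg over all probes tested. The methods of the study name background subtraction, quantile normalization and a Split-Factor analysis of variance, which was not repeated here, and its thresholds (p under 0.01 and 1.4-fold) were an alternative.

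Groups followed the sample titles, and each pool was of different mice. The scripts were tested on simulated data. The number of arrays limits the precision. The probes and gene lists were chosen with earlier results of these data known. Genes were named by rule: for each comparison with fed, up to 10 called rises and 10 called falls with all 3 pools apart from all 3 fed pools, every called subunit of the coats and of ER import, members whose probes disagreed, and name-only matches. Others were chosen after their values were seen. Where the accession and the gene number of a probe pointed to different genes, as for both Rab5a probes, the accession was used. Alternatives were no background correction, loess, median centring, the software's ratio, Cy3 alone, a direct test against the reference, only the arrays compared, a filter on dim probes, a replicate block and leaving out each array. Tables and figures were made with Python 3.11.15, pandas 2.3.3, numpy 2.4.6 and matplotlib 3.10.9.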

Additional observations from a re-analysis of the deposited data

Results flagged for a closer look

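Among the trafficking probes named by rule for a change against fed, 40 differences between fasted time points passed the test of the difference itself, an adjusted p under 0.05 in limma. The probes had been picked for changes on the same arrays, so this count adds no support. Over all probes, 2.94% were called at 24 h against 12 h, 10.8% at 72 h against 12 h and 10.6% at 72 h against 24 h. No explanation of the differences was tested, and apart from 24 h against 12 h the comparisons cross file layouts.

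Between 12 h and 24 h the differences were those of Rab3d (-1.62) and Rab20 (-1.04). Golga4 on A_65_P02392 (-1.15 between 12 h and 24 h) and Vps54 on A_65_P02410 (1.33 between 12 h and 72 h), which that rule did not name, passed the same test. Between 12 h and 72 h, the coat and import genes that differed were Copz1 (-2.20), Copa (-1.62), Cope (-0.74) and Sec61a2 (0.81). The adaptors that differed were Ap2a2 (1.28), Ap4m1 (-0.88), Ap2m1 on A_65_P16907 (-0.73) and Ap1s2 (-0.58). The SNAREs were Stx1a (-1.02), Sec22l2 (0.74) and Vamp2 (0.89), and the Rab genes were Rab11a (-1.14), Rab3d (-1.01) and Rab5a on A_65_P18707 (0.77). The sorting nexins were Snx1 (-0.86), Snx5 on A_65_P08683 (-0.74), Snx2 on A_65_P13010 (-0.71) and Snx3 (-0.70). Copeb on A_65_P19406, matched by name only, gave 1.55.

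Between 24 h and 72 h, Sec23a differed on both probes (-0.73 and -0.92), Cope by -0.76, Copg2 by 1.06 and Sec61a2 by 0.64. Ap2a2 gave 1.20 and Ap2m1 -0.58. Vamp2 gave 1.06, Stx3 on A_65_P16598 0.94, Sec22l2 0.78 and Stx1a -0.86. Rab20 gave 0.88 and Rab5a 0.67. Snx5 gave -0.85, Snx3 -0.77, Snx2 -0.63 and the retromer subunit Vps29 0.74. Of the probes matched by name only, Copeb gave 1.31 and Sec14l2 -1.04.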

How the results depend on the processing

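Of the 65 changes of named probes, 5 reversed: with Cy3 alone Ap4m1 (-0.035), Srp14 (0.304) and Copg2 (-0.089) at 12 h and Ap1m1 (-0.195) at 24 h, and directly against the reference Stx1a at 24 h (-0.024). Many others kept their sign but lost the call. At 12 h, Copa and Snx2 on A_65_P13010 kept it in 5 of 22 settings, while at 72 h Cope and Vamp2 kept it in all 22. Of all member calls, 8 of 28 at 12 h, 2 of 13 at 24 h and 13 of 33 at 72 h stood without each array in turn. At 12 h against fed the count of member probes was 28. It was 18 with no background correction, 15 with the software's ratio and 16 with Cy3 alone (5.86%, 7.86% and 15% of all probes called). It was 52 directly against the reference and 14 with the replicate block (23.6% and 6.37% of all probes). With only the arrays compared it was 0 (43 at an unadjusted p under 0.05 in limma), where 0 of all probes were called. At 24 h against fed it was 13 (10.0% of all probes called). Loess gave 20, median centring 30 and the software's ratio 8 (19.7%, 19.2% and 16.1% of all probes). Cy3 alone gave 26 and the direct test against the reference 26 (24.6% and 15.3% of all probes). Only the arrays compared gave 22 and the replicate block 4 (16% and 7.36% of all probes). At 72 h against fed it was 33, 58 directly against the reference and 23 with the replicate block (10.6%, 25% and 8.41% of all probes). For 24 h against 12 h it was 3 (2.94% of all probes). Median centring, the software's ratio and only the arrays compared each gave 0 (0.996%, 1.23% and 0.118% of all probes). At an unadjusted p under 0.05 in limma these settings gave 19, 17 and 18. Cy3 alone gave 10 (8.22% of all probes). The methods' thresholds gave 14, and their share over all probes was not counted. For 72 h against 12 h it was 24 (10.8% of all probes). Median centring gave 3, the software's ratio 10 and only the arrays compared 3 (3.27%, 7.27% and 2.99% of all probes). For 72 h against 24 h it was 22 (10.6% of all probes). Median centring gave 9, only the arrays compared 45 and the replicate block 12 (6.2%, 22.2% and 8.07% of all probes). Cy5 calls at 12 h went from 39 to 24 with no background correction. Partner genes went at 12 h from 11 to 7 with no background correction, 5 with the software's ratio, 6 with Cy3 alone, 25 directly and 0 with only the arrays compared, at 24 h from 7 to 3 with no background correction, 12 with median centring, 15 with Cy3 alone and 13 directly, and at 72 h from 17 to 33 directly. Without single arrays the counts ran from 10 to 47 at 12 h, from 2 to 25 at 24 h, from 16 to 46 at 72 h, from 0 to 10, from 3 to 36 and from 4 to 41 between fasted times, from 31 to 70 by the F-test, from 13 to 71 and from 13 to 44 for Cy5 at 12 and 24 h, and from 4 to 21, 1 to 12 and 7 to 26 for partner genes. The share of all probes called also moved without single arrays. It ran from 3.16% to 22.6% at 12 h, from 2.88% to 19.7% at 24 h and from 4.2% to 18.5% at 72 h. Between fasted times it ran from 0.819% to 7.36%, from 3.05% to 16.3% and from 2.72% to 19.5%. The cause of these shifts was not tested. Same-numbered pools are of different mice, and their deviations correlated between -0.28 and 0.13, over 0.1 in 2 of 18 pairs, against 4 of 36 pairs of other numbers, so the numbers do not pair the pools. A block for the file layout was not run: it cannot be fitted where each layout holds 1 of the groups compared. The software's ratio and the deposited value table are the same values, and so 1 setting. Before that setting was run, 1822 of these ratios were read as having a moved decimal point and were rescaled. A further 89 were left out.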
